A study of Homo sapiens with 4 samples.

Results

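Superoxide dismutases, catalase and glutathione peroxidases are the enzymes that remove superoxide and peroxides from cells. The messenger RNAs of 9 of these enzymes (SOD1, SOD2, SOD3, CAT, GPX1, GPX2, GPX3, GPX4 and GPX8) were examined, as a list of gene symbols taken from the 24424 symbols counted in each library. The RNA was from BEAS-2B, a human bronchial epithelial line of wild-type genotype, as 1 library for each of 4 conditions. Control cells received no treatment, and LPS cells received lipopolysaccharide, the outer membrane component of gram-negative bacteria, for 2 hr. The peptide groups, WT PDZ+LPS and mut PDZ+LPS, had 24 hr of wild-type or mutant peptide before the same 2 hr of LPS. The wild-type peptide is derived from the first PDZ domain of the tight junction protein ZO-1 and carries a TAT sequence for cell entry, and in the mutant peptide a pair of glycines is replaced by alanines. No library received a peptide without LPS, so an effect of the peptide alone cannot be told apart from its effect under LPS. The study measured reactive oxygen species in mitochondria from the kidneys of mice injected with LPS, which differ from these cells in species, tissue, route and time. The comparisons here ask only whether the mRNAs of enzymes that clear such species differed between the 4 libraries.

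Superoxide dismutases turn superoxide into hydrogen peroxide. SOD1 (copper and zinc, cytosol), SOD2 (manganese, mitochondria) and SOD3 (secreted) share this task, and SOD2 is known as a target of NF-kB, the transcription factor that LPS activates. Catalase breaks down hydrogen peroxide in peroxisomes, and glutathione peroxidases reduce peroxides with glutathione as the electron donor. GPX1 acts mainly on soluble peroxides, GPX4 on lipid peroxides in membranes, GPX2 is typical of gut epithelium, GPX3 is secreted, and GPX8 is a membrane protein of the endoplasmic reticulum.

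Since each condition had 1 library, no difference between conditions could be tested, and no p-value is given. The 95% intervals are exact and cover only the counting error of the libraries compared. PCR copies cannot be told from separate molecules in these reads, which the intervals do not cover. Counts were divided by size factors to give normalized counts, and fold changes are on the scale of log2(normalized count + 1). A gene was called when it was at least 2-fold apart between 2 libraries and had at least 16 normalized counts in at least one of them. Comparisons that share the Control or the LPS library are not independent of each other, and their values are given side by side.

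Promoter sequences are shown for the member that was called, SOD2, and for the members with the next highest and the lowest value in LPS/Control, GPX3 and GPX8. They are RefSeq sequences of GRCh38.p14 and run from 250 bases before a gene start to 50 bases after it, whereas the counts were made on hg19, so that the windows place the genes and not the reads. RefSeq windows were found for 8 of the 9 members, 13 in all, of which 4 belonged to SOD2. The SOD2 window is chr6:159693192-159693491 on the minus strand, at the start shared by the shortest and the longest of its principal transcripts, and the GPX3 and GPX8 windows are chr5:151020341-151020640 and chr5:55159921-55160220 on the plus strand. Capitals mark GC boxes (GGGCGG) and CCAAT boxes (CCAAT), searched on both strands, with overlapping matches counted separately.
SOD2: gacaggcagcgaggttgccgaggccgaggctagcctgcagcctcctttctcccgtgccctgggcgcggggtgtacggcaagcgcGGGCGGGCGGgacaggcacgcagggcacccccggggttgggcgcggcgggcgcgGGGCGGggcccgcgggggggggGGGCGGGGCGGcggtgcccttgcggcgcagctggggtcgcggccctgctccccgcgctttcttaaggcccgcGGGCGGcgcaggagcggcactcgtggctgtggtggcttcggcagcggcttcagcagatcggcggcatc
GPX3: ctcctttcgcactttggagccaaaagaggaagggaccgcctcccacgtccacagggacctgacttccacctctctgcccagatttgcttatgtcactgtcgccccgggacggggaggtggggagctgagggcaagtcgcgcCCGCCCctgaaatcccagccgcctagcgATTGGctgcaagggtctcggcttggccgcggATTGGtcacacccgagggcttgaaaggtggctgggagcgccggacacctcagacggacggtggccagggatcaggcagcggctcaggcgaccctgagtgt
GPX8: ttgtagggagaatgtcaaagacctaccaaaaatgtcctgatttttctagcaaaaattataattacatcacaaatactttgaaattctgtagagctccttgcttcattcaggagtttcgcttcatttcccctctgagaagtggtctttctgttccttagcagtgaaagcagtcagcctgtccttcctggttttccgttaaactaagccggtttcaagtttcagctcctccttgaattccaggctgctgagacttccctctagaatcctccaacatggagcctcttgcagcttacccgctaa
The SOD2 window held 6 GC boxes and no CCAAT box, the GPX3 window 1 GC box and 2 CCAAT boxes, and the GPX8 window none of either. GC content was 78.3% in the SOD2 window, 65.0% in GPX3 and 43.0% in GPX8. The 13 windows are not independent, since GPX4 had 3, of which a pair overlap, so matches were counted by gene. A GC box was present in a window of 6 of the 8 members, against 48.3% of the 27303 genes with RefSeq windows, and a CCAAT box in 6, against 39.7%. A match in any window counted, so SOD2 with 4 windows and GPX4 with 3 had more sequence to match than a gene with 1. SOD2 had its CCAAT boxes only in windows not shown here. The motif of NF-kB and the TATA box (TATAAA) matched 0 of the 8, against 13.3% and 14.0% of genes. The antioxidant response element (TGACNNNGC) matched GPX2 alone, against 16.1% of genes. These matches describe the letters of the windows and say nothing about whether a factor was bound.

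The libraries held 24823347 counts in Control, 25155647 with LPS alone, 23446600 after the wild-type peptide and 19682929 after the mutant. All 9 epithelial markers examined were counted in every library, although KRT14 had 37 to 42 counts, EPCAM 37 to 51 and KRT19 87 to 216. The leukocyte marker PTPRC had 0 counts throughout and the 4 endothelial markers together reached 24.7 to 32.0 normalized counts. The leukocyte markers CD14 and CD68 had 366 to 523 and 305 to 362 normalized counts. Of the 6 fibroblast markers, VIM, which cultured epithelial lines also express, had 20794 to 24975, COL1A1 had 288 to 422, COL1A2, DCN and PDGFRB had 0.94 to 121, and LUM was at 0. Fold changes in the mut PDZ+LPS library ran with the length and the GC content of transcripts. Across 11751 genes, Spearman's rho of the log2 difference with the longest protein-coding transcript was -0.603 in mut PDZ+LPS/LPS, against 0.0736 in WT PDZ+LPS/LPS and 0.154 in LPS/Control. This is a description across genes, which are not independent replicates.

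SOD2 was the member that differed most with LPS. Its counts were 4766 in Control, 38654 with LPS alone, 38887 after the wild-type peptide and 20977 after the mutant. After normalization these were 4148, 36361, 39267 and 24648. SOD2 was thus lowest in Control by a wide margin, and of the LPS-treated libraries the mutant peptide had the lowest value. On the log2 scale LPS/Control was 3.13 (95% counting interval, 3.09 to 3.18), or 8.76-fold, above 99.5% of the 13072 genes that averaged 16 normalized counts or more. By count SOD2 ranked 1049 among all genes in Control, 36 with LPS alone, 30 after the wild-type peptide and 89 after the mutant. It was the one member called in LPS/Control, 1 of the 7 that passed the expression rule, beside 4.87% of the 13277 genes that passed it.

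Of the other members, SOD1, CAT, GPX1, GPX3, GPX4 and GPX8 also averaged 16 normalized counts or more, and SOD3 and GPX2 did not. The median log2 fold change of these 7 members, SOD2 included, was 0.0012 in LPS/Control, beside -0.0010 over all genes with that mean.

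**Figure D1:**
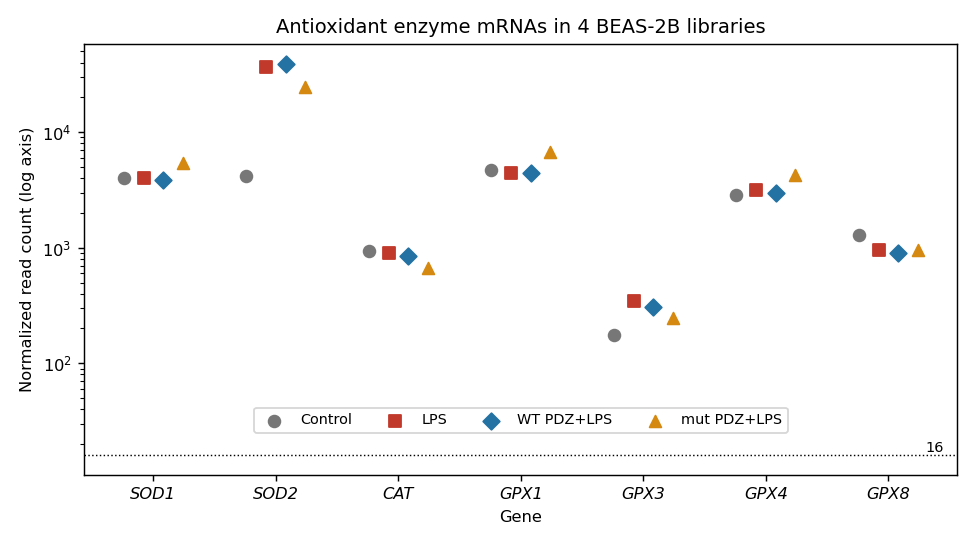
Normalized read counts (log axis) of the 7 members that averaged 16 or more, with 1 point for each of the 4 libraries and a dotted line at 16. SOD2 goes from 4148 in Control to 24648 or more in the libraries with LPS, and in no other member are 2 libraries as much as 2-fold apart.

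SOD1, the most general of the dismutases, had 4047 normalized counts in LPS and 4043 in Control. The difference was not detectable at this depth (log2 fold change 0.0012, 95% counting interval -0.059 to 0.061). SOD3, the extracellular enzyme, had 0 counts in all 4 libraries, which allows up to 0.152 CPM (counts scaled to library total) after the mutant peptide and up to 0.128 elsewhere.

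The balance between the dismutases therefore differed between libraries in a way that does not depend on the size factors. SOD2 made up 50.6% of the reads of SOD1, SOD2 and SOD3 in Control (exact binomial interval, 49.6 to 51.7%), 90.0% in LPS (89.7 to 90.3%), 91.1% in WT PDZ+LPS (90.8 to 91.3%) and 81.9% in mut PDZ+LPS (81.4 to 82.4%). The intervals of the 4 libraries do not overlap. GENCODE 29 lists principal transcripts of SOD2 from 990 to 14266 nt, against 966 nt for SOD1. With 990 nt for SOD2 the shares per length were 50.02%, 89.8%, 90.9% and 81.5%, and with 14266 nt they were 6.50%, 37.8%, 40.9% and 23.5% in the same order. A single length per gene leaves the order of the libraries fixed. With the trends over length and GC content removed by longest transcripts, mut PDZ+LPS/LPS was 0.048 for SOD2 and 0.053 for SOD1 on the log2 scale. The lower share in mut PDZ+LPS than in LPS was then no longer seen. With the shortest principal transcripts the values were -0.84 and 0.16.

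**Figure D2:**
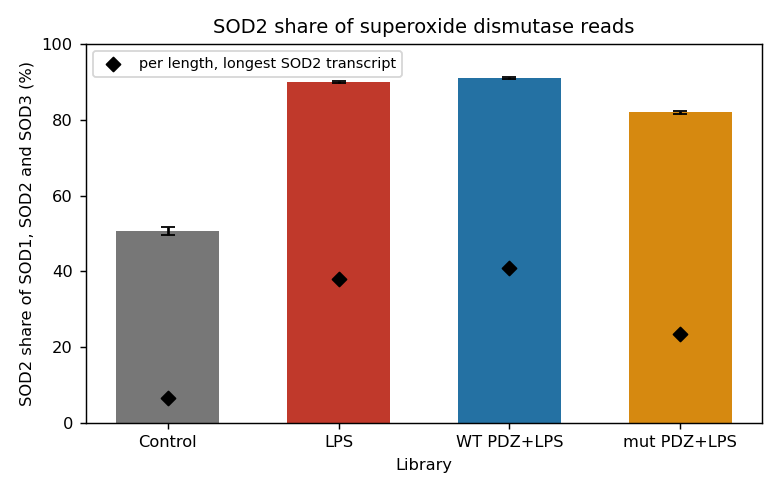
Share (%) of SOD2 among reads of SOD1, SOD2 and SOD3 in each library, with bars for reads, error bars for the exact 95% binomial interval, and diamonds for the share after division by the longest transcripts. The bars stand at 50.6% in Control and at 81.9 to 91.1% in the libraries with LPS, and the diamonds run from 6.50 to 40.9% in the same order.

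GPX3, the secreted peroxidase, was closest to the threshold among the members that were not called. It had 200 counts in Control, 367 with LPS alone, 306 after the wild-type peptide and 211 after the mutant, or 174, 345, 309 and 248 normalized counts. GPX3 was lowest in Control and highest in LPS. LPS/Control was 0.98 on the log2 scale (95% counting interval, 0.74 to 1.24), or 1.98-fold, just under the 2-fold threshold, and 1.03 once trends over length and GC were removed, just over it. In WT PDZ+LPS/Control it was 0.82 (0.57 to 1.09), and in mut PDZ+LPS/Control 0.51 (0.22 to 0.80). The last value was 0.24 after the correction with longest transcripts and 0.33 with the shortest principal ones.

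GPX8 had the lowest value among these members in LPS/Control. It had 1469 counts in Control, 1021 with LPS alone, 895 after the wild-type peptide and 819 after the mutant, or 1278, 960, 904 and 962 normalized counts. Control stood above the other 3 libraries, which lay close together. Its LPS/Control value was -0.41 (95% counting interval, -0.53 to -0.30), or 1.33-fold lower in LPS, and -0.50 in WT PDZ+LPS/Control (-0.62 to -0.38).

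GPX1, the abundant peroxidase of the cytosol and mitochondria, had 4708 normalized counts in Control, 4401 with LPS alone, 4443 after the wild-type peptide and 6730 after the mutant. GPX4, which guards membranes against lipid peroxidation, had 2888, 3142, 2971 and 4299 in the same order. Both were highest in mut PDZ+LPS and differed little among the other 3 libraries. With the trend over length and GC content removed, mut PDZ+LPS/Control went from 0.52 to -0.088 (longest transcripts) or -0.021 (shortest principal ones) for GPX1, and from 0.57 to -0.10 or 0.020 for GPX4. In LPS/Control, GPX1 was at -0.098 (95% counting interval, -0.15 to -0.041) and GPX4 at 0.12 (0.052 to 0.19) on the log2 scale. CAT had 937 normalized counts in Control, 903 with LPS alone, 853 after the wild-type peptide and 667 after the mutant. Its difference in LPS/Control was not detectable at this depth (-0.054, -0.18 to 0.073). GPX2 had 6 counts in Control, 0 with LPS alone, 4 after the wild-type peptide and 0 after the mutant, too few for a fold. Of the other family members, GPX5 and GPX6 had 0 counts in all libraries, and GPX7 had 29 counts in Control, 13 with LPS alone, 25 after the wild-type peptide and 23 after the mutant.

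Levels of different genes were compared as normalized counts per kilobase of the shortest principal transcript. This length was chosen after seeing the data, and the longest transcript was the length planned. In Control, SOD2, SOD1 and GPX1 stood at 4190, 4186 and 4091 per kilobase, with counting intervals that overlapped, followed by GPX4 at 3142, GPX8 at 906, CAT at 409 and GPX3 at 106. In LPS, SOD2 stood at 36728 and the next, SOD1, at 4189, while GPX1, GPX4, GPX8, CAT and GPX3 followed in the same order at 3823, 3419, 681, 395 and 211. The place of SOD2 rests on the length taken for it, since its longest transcript gives 291 in Control and 2549 in LPS. With the longest transcript of each gene, SOD2 stood in Control below GPX8 at 394 and CAT at 407, whose intervals overlapped. In LPS it then stood below SOD1 at 4189, GPX1 at 3823 and GPX4 at 3136. SOD2 thus fell from the first place among the members with the choice of length. It remained above GPX3, which stood at 99.1 in Control and 196 in LPS with its longest transcript.

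With the wild-type peptide, SOD2 again stood far above Control. Its log2 fold change in WT PDZ+LPS/Control was 3.24 (95% counting interval, 3.20 to 3.29), and it was the 1 call among the 7 members tested, beside 4.70% of all genes tested. In WT PDZ+LPS/LPS, 0 of the 7 members tested were called, beside 1.37% of all genes tested. SOD2 was at 0.11 (0.091 to 0.13), 1.08-fold higher in WT PDZ+LPS. SOD1 was at -0.073 (-0.14 to -0.010), GPX4 at -0.081 (-0.15 to -0.0089), CAT at -0.082 (-0.22 to 0.053), GPX8 at -0.088 (-0.22 to 0.043), GPX3 at -0.16 (-0.38 to 0.063) and GPX1 at 0.014 (-0.046 to 0.074). The intervals of CAT, GPX8, GPX3 and GPX1 included 0, so that differences were not detectable at this depth. The median of the 7 members was -0.081, beside 0.0075 over all genes.

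**Figure D3:**
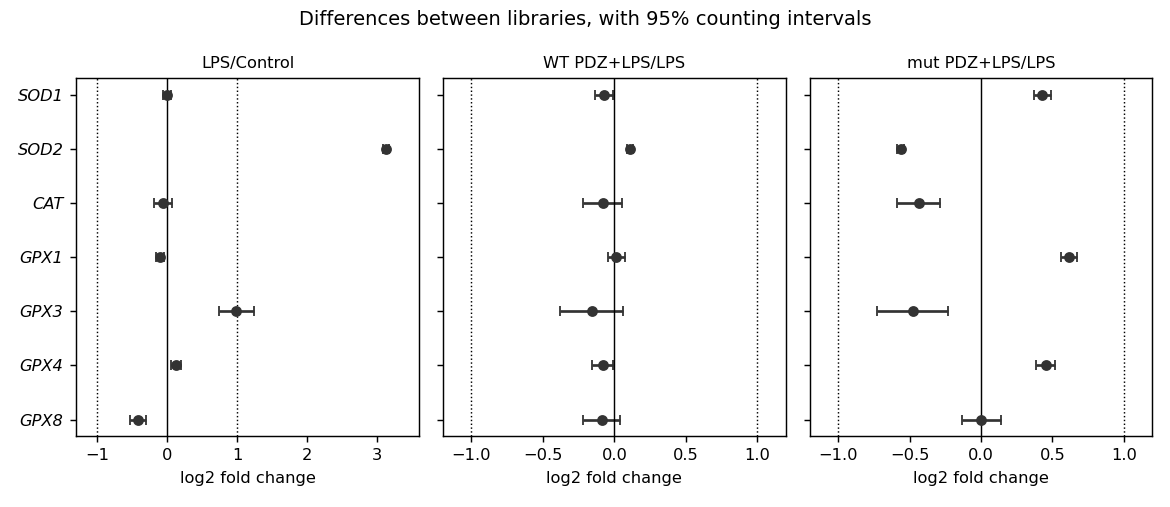
Log2 fold changes of the 7 members in 3 comparisons (LPS/Control and each peptide group against LPS), with bars for the 95% counting interval and dotted lines at the 2-fold threshold; the horizontal scale of the first panel is wider. SOD2 lies at 3.13 in the first panel, all members lie between -0.16 and 0.11 in the second, and they spread from -0.56 to 0.61 in the third.

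With the mutant peptide, SOD2 was also called against Control, as 1 of the 7 members tested beside 8.09% of all genes tested. Its log2 fold change was 2.57 (95% counting interval, 2.53 to 2.62), or 5.94-fold. Corrected for length and GC content it was 3.09 with the longest and 2.35 with the shortest principal transcript. In mut PDZ+LPS/LPS, 0 of the 7 members tested were called, beside 3.95% of all genes tested. SOD2 was at -0.56 (-0.59 to -0.54), or 1.48-fold lower than in LPS, CAT at -0.44 (-0.59 to -0.29) and GPX3 at -0.48 (-0.73 to -0.23). GPX1 was at 0.61 (0.56 to 0.67), GPX4 at 0.45 (0.38 to 0.52) and SOD1 at 0.43 (0.37 to 0.49), and GPX8 at 0.0028 (-0.13 to 0.14). The median of the 7 members was 0.0028, beside -0.023 over all genes. GPX7, a family member outside the 9, was called higher there, at 1.08 (0.10 to 2.25), on 23 counts against 13, and fell under the threshold, at 0.74, with the correction for length and GC content described next. The higher members, SOD1, GPX1 and GPX4, have longest transcripts of 966, 1151 and 1002 nt, and those of the lower members CAT, GPX3 and SOD2 measure 2302, 1757 and 14266 nt. GPX8, near 0, has one of 3245 nt, longer than those of CAT and GPX3.

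These values moved when the trends over transcript length and GC content in the mut PDZ+LPS library were removed together. After the trend over length and GC content was removed with the longest transcript of each gene, mut PDZ+LPS/LPS was -0.044 for GPX1, 0.053 for SOD1, -0.27 for GPX4, -0.51 for CAT, -0.80 for GPX3 and 0.065 for GPX8. CAT and GPX3 thus kept values below 0, while the values of GPX1 and SOD1 came close to 0 and that of GPX4 changed sign. For SOD2 the answer depended on the transcript. The value was 0.048 with 14266 nt and -0.84 with the shortest principal transcript of 990 nt, on either side of the uncorrected -0.56. Which SOD2 transcripts the reads came from cannot be read from counts per symbol. With the shortest principal transcripts, GPX1 was at 0.017, SOD1 at 0.16, GPX4 at -0.16, CAT at -0.42, GPX3 at -0.72 and GPX8 at -0.23.

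**Figure D4:**
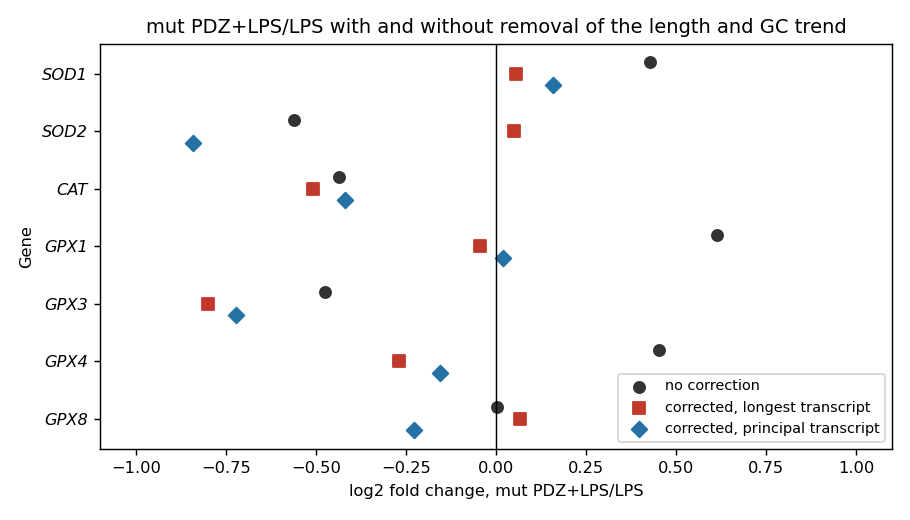
Log2 differences of the 7 members in mut PDZ+LPS/LPS without a correction (circles), and after removal of the length and GC trend with the longest (squares) or the shortest principal transcript (diamonds) of each gene. GPX1 goes from 0.61 to -0.044 or 0.017, CAT remains between -0.51 and -0.42, and SOD2 goes to 0.048 or to -0.84.

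The peptides were also compared with each other at the same times. In mut PDZ+LPS/WT PDZ+LPS, 0 of the 7 members tested were called, beside 4.26% of all genes tested. SOD2 was at -0.67 (95% counting interval, -0.70 to -0.65), or 1.59-fold lower with the mutant peptide, CAT at -0.35 (-0.51 to -0.20) and GPX3 at -0.32 (-0.58 to -0.060), whereas GPX1 was at 0.60 (0.54 to 0.66), GPX4 at 0.53 (0.46 to 0.60) and SOD1 at 0.50 (0.44 to 0.56). After the correction, SOD2 was at -0.0082 with the longest transcript and at -0.96 with the shortest principal one, and CAT at -0.43 and -0.34. In the same order GPX3 was at -0.66 and -0.59, SOD1 at 0.11 and 0.22, GPX1 at -0.070 and -0.0063 and GPX4 at -0.20 and -0.085. GPX1 and GPX4 thus changed sign with either transcript. The dose of the peptides is not stated in the labels, and the difference has no replicate check.

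Reads at SOD2 can be shared with neighbours, since in GENCODE 29 its exons overlap exons of WTAP and ACAT2 on the opposite strand and of the long non-coding RNA SOD2-OT1 on its own strand. The library kit keeps the strand, but whether the counting used it is not stated in the sources used here. WTAP, a subunit of the RNA methyltransferase complex, had 3116 normalized counts in Control, 10561 with LPS alone, 9955 after the wild-type peptide and 10464 after the mutant. ACAT2, an enzyme of acetyl-CoA metabolism, had 6580, 7084, 6810 and 6626. WTAP was therefore also higher in the libraries with LPS, by 1.76 on the log2 scale in LPS/Control (95% counting interval, 1.71 to 1.82), and its part in the SOD2 counts was not tested. In mut PDZ+LPS/LPS, WTAP was at -0.013 (-0.054 to 0.027), where SOD2 was at -0.56.

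The genes whose pattern over the 4 libraries was most like that of SOD2 were sought among 9290 others with a mean level of 8 or more in log2 units, by the Euclidean distance between log2 values centred on their mean. The 5 nearest were BDKRB2, a bradykinin receptor, IRAK2, a kinase of IL-1 and Toll-like receptor signalling, ABCA1, a cholesterol exporter, CLDN1, a claudin of tight junctions, and MN1, a transcriptional coregulator, at distances from 0.151 to 0.278. IRAK2 had 110 normalized counts in Control, 1072 with LPS alone, 1007 after the wild-type peptide and 701 after the mutant. CLDN1 had 913, 7058, 7101 and 5144 in the same order. Likeness over these 4 libraries was what chose the 5 genes, so their shared pattern is a description.

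Lists of genes that work beside these enzymes were examined by the same rule. In the peroxiredoxin and thioredoxin system, which reduces peroxides without glutathione, 0 of 15 genes were called in LPS/Control or in either peptide group against LPS, with medians of -0.011, -0.012 and 0.066, beside -0.0010, 0.0075 and -0.023 over all genes. Since 4.87%, 1.37% and 3.95% of all genes tested were called in these comparisons, a count of 0 in lists of this size does not set them apart. The 8 factors of selenoprotein synthesis, which insert the selenocysteine of GPX1 to GPX4, also had 0 calls beside the same shares, with medians of -0.14, 0.040 and -0.020. Among 13 genes of glutathione synthesis and recycling, CHAC1, which degrades glutathione, was called higher in LPS/Control, with 57 counts in Control and 161 in LPS (log2 fold change 1.59, 95% counting interval 1.17 to 2.07). In mut PDZ+LPS/LPS, SLC7A11, the cystine importer that supplies glutathione synthesis, was called lower, at -1.03 (-1.24 to -0.83) or -0.60 after the correction with the longest transcripts. GGT1, which cleaves extracellular glutathione, was called higher there, with 14 counts against 6. In WT PDZ+LPS/LPS, 0 of the 12 that passed the expression rule were called, beside 1.37% of all genes tested. Against Control, CHAC1 was again the 1 called gene of these 3 lists in both peptide groups. Its list had 12 genes tested with the wild-type peptide, beside calls for 4.70% of all genes tested. With the mutant it had 13, beside 8.09%. In mut PDZ+LPS/Control CHAC1 was at 1.76, or 1.36 after the correction with the longest transcripts. In mut PDZ+LPS/WT PDZ+LPS, TXNRD3, a thioredoxin reductase, was called lower, with 29 counts against 77 (-1.17, -1.86 to -0.56). It was the 1 call among the 15 genes tested in its list, beside 4.26% of all genes tested.

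Among 20 genes for sources of superoxide, peroxide and nitric oxide, with the copper chaperone of SOD1, 6 averaged 16 normalized counts or more. CYBB, the catalytic subunit of the phagocyte oxidase, and NOS3 had 0 counts in all libraries, and NOS2, the inducible nitric oxide synthase, had 0 in Control, 1 with LPS alone, 2 after the wild-type peptide and 0 after the mutant. XDH, which yields superoxide and hydrogen peroxide as it oxidizes purines, was called higher in LPS/Control, with 41 counts in Control and 80 in LPS (log2 fold change 1.06, 95% counting interval 0.52 to 1.66). DUOX1, a peroxide-producing oxidase of airway epithelium, was called lower in mut PDZ+LPS/LPS, with 6 counts against 23 (-1.49, -3.20 to -0.28). It was also called lower in mut PDZ+LPS/Control (-1.61, -3.30 to -0.43) and in the comparison of the mutant with the wild-type peptide (-1.65, -3.36 to -0.45). CYBA, the membrane partner of several NADPH oxidases, was called higher in mut PDZ+LPS/Control, with 40 counts against 22 (1.25, 0.51 to 2.12), and against the wild-type peptide (1.32, 0.53 to 2.26). NOXA1, an activator of NOX1, was called higher against the wild-type peptide, with 28 counts against 15 (1.07, 0.17 to 2.13). With the correction by longest transcripts neither reached the threshold, since CYBA was at 0.81 against Control and 0.80 against the wild-type peptide, and NOXA1 at 0.38. DUOX1 remained past the threshold in mut PDZ+LPS/Control with that correction, at -1.50. In WT PDZ+LPS/LPS, 7 of the 20 passed the expression rule and 0 were called, beside 1.37% of all genes tested. In LPS/Control 7 passed, with 1 call beside 4.87% of all genes tested, and in mut PDZ+LPS/LPS 7, with 1 call beside 3.95%. In mut PDZ+LPS/Control 7 passed, with 1 called higher and 1 lower beside 8.09%. Between the peptides 7 passed, with 2 called higher and 1 lower beside 4.26%. In WT PDZ+LPS/Control 6 passed, with 0 calls beside 4.70%. CCS, the chaperone that loads SOD1 with copper, had 273 counts in Control, 292 with LPS alone, 263 after the wild-type peptide and 309 after the mutant.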

How the data were processed

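RNA was sequenced from BEAS-2B cells in 4 libraries, 1 for each condition, after poly(A) selection with a kit that keeps the strand. The authors trimmed the reads, aligned them to hg19 with TopHat (per the labels) and deposited read counts per gene symbol without normalization. The annotation, the counting tool, the use of the strand and the treatment of reads from pseudogenes are not given in the sources used here. The authors' methods name FPKM and geometric normalization, but the deposited counts are whole and their totals differ.

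Size factors (1.15 in Control, 1.06 with LPS alone, 0.99 after the wild-type peptide and 0.851 after the mutant) came from the geometric method of DESeq2 1.42.0 in R 4.3.3. Intervals are Clopper-Pearson at 95% for 2 libraries and shares, and exact Poisson for a level per kilobase. Counts of 0 were read as at most 3 counts. For the correction, a lowess curve (span 0.3) over GENCODE 29 length, then one over GC content, was subtracted. Of 13072 genes, 11751 had both. Alternatives were TMM and upper-quartile scaling (edgeR 4.0.16), total-count scaling, a pseudocount of 5, other expression and fold thresholds, and the correction. Principal transcripts are those marked by APPRIS, and were an alternative chosen after seeing the data. Named genes were the 9 members, the rest of the GPX family, called genes of 4 lists and the 5 genes nearest to SOD2 in pattern. Members and lists were chosen with earlier results of these data known. The steps were tested on simulated data. Python 3.11.15, scipy 1.17.1, pandas 2.3.3 and statsmodels 0.14.6 were used.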

Additional observations from a re-analysis of the deposited data

Results flagged for a closer look

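3 members differed from LPS in opposite directions in the libraries of the peptides, with counting intervals that left out 0 in both. This was before any correction for transcript length and GC content. SOD1 was at -0.073 in WT PDZ+LPS/LPS and at 0.43 in mut PDZ+LPS/LPS. SOD2 was at 0.11 and -0.56, and GPX4 at -0.081 and 0.45. With 1 library per condition, these differences were not tested. The share of all genes meeting the same rule was not counted, so the 3 cannot be read as particular to these members. Both comparisons share the LPS library, and the values of mut PDZ+LPS moved with removal of the trends over transcript length and GC content. With those trends removed, mut PDZ+LPS/LPS was -0.27 (longest transcripts) or -0.16 (shortest principal ones) for GPX4, on the same side of 0 as WT PDZ+LPS/LPS. SOD1 was then at 0.053 or 0.16, and SOD2 at 0.048, the side of WT PDZ+LPS/LPS, or -0.84.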

How the results depend on the processing

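SOD2 was called in each comparison with Control under every alternative run. Without the expression rule GPX2 was called as well, on 0 to 6 counts per library. This gave 2 members in LPS/Control, 2 in mut PDZ+LPS/Control, 1 for the wild-type peptide against LPS and 1 between the peptides. At a 1.5-fold threshold there were 2 members (SOD2 and GPX3) in LPS/Control and in WT PDZ+LPS/Control, 1 (GPX1) in mut PDZ+LPS/LPS and 2 (SOD2 and GPX1) between the peptides. The correction for length and GC content gave 2 members (SOD2 and GPX3) in LPS/Control with either choice of transcript. The share of all genes called under these changed rules was not counted, so the added calls do not set the members apart. The SOD2 share of dismutase reads became 6.50% in Control, 37.8% with LPS alone, 40.9% after the wild-type peptide and 23.5% after the mutant per length with the longest transcripts.

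Of 42 log2 fold changes of single members, TMM scaling and a pseudocount of 5 left 42 moved by less than their counting error, upper-quartile scaling 30, total-count scaling 24 and the correction 23 with either transcript. Total-count scaling lowered the median of all genes by 0.13 in LPS/Control, to -0.13. The signs of 34 of the 42 values were kept under the correction with the longest transcripts and of 36 with the principal ones. No paired analysis was possible because each condition had 1 library, and no replicate could be left out. The depth limits GPX2, GPX7, DUOX1, GGT1 and NOXA1, which had at most 29 counts in any library.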
